A study of Homo sapiens with 6 samples.

Results

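The mitochondrial carriers of the SLC25 family were followed in ARPE-19, an established line of human retinal pigment epithelial cells, before and after treatment with glucose oxidase, an enzyme that makes hydrogen peroxide from the glucose of the medium. Members were taken by name: every gene with a probe set whose only annotated symbol was SLC25A and a number, which gave 46 genes with 117 probe sets among 18132 genes. Each gene was read from its brightest probe set, and 40 of the 46 reached the floor of 4.64, the 40th percentile of probe set means on the log2 scale. SLC25A6 was not analysed here. Relatives named by other symbols, the uncoupling proteins and MTCH genes, are described with the gene lists.

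The study placed RNA from 6 cell samples on 1 Affymetrix array each. By the protocol, all cells were transfected to express GFP, a green fluorescent protein. After another 48 h, glucose oxidase at 10 mU/ml acted for 3 h on the cells of 3 arrays (called 3 h here) and was not given to those of the other 3 (called 0 h). Sample descriptions at 3 h instead name a construct of GFP with alpha satellite, so the transfected DNA and the treatment cannot be told apart. The labels list no culture kept for 3 h without enzyme and do not say that replicates were separate cultures, and p-values then measure only the spread between these samples, which may be technical. The number of arrays limits the precision. All 24 probe sets for the poly-A spikes, added to the RNA as controls, were lower on every 3 h array than on any 0 h array (median log2 change -0.60). The hybridization spikes, which are added after labelling, were likewise lower at 3 h on 17 of their 18 probe sets, with a median of -0.31. The difference between the 5′ and 3′ actin probe sets went from -2.06 ± 0.07 to -1.20 ± 0.06 (log2, SD, n = 3). These differences run along with all results below, and their part in them was not tested. In a list of markers used for retinal pigment epithelium, RPE65 and RLBP1 were under the floor in both groups (means of 3.48 and 3.48, and of 4.20 and 4.20), while 10 of the 12 measured were above it. Among these were MITF (8.15 at 0 h, 8.48 at 3 h) and OTX2 (8.37 and 8.56), transcription factors of this epithelium, RDH11 (10.01 and 9.77), a retinol dehydrogenase, and the keratin genes KRT8 and KRT18 (11.48 and 12.22 at 0 h). The rest were dimmer: BEST1, TTR, TYR, PMEL and SERPINF1 had means over all arrays of 4.72, 5.07, 5.28, 5.80 and 5.92. Of the 10 tested markers in that list 4 rose and 2 fell (20.6% and 30.8% of all genes), and their summed log2 values with the 2 dim ones went from 84.6 to 84.9 at 0 h and from 85.2 to 86.2 at 3 h. Of 7 blood and endothelial markers 4 were tested and 0 called (limma; 2 at an unadjusted p under 0.05, CD3E at 0.23 and VWF at -0.18, named after their values were seen), with sums of 30.3 to 31.0 and 30.9 to 31.4, and PTPRC, the leukocyte marker, was under the floor (2.44 at 0 h, 2.54 at 3 h). The tested CD3E, VWF, PECAM1 and HBB had means over all arrays of 5.11, 5.19, 5.29 and 5.92, so passing the floor does not by itself mark a cell type.

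SLC25 proteins carry small molecules across the inner mitochondrial membrane, which is otherwise closed to charged solutes. Most work as exchangers: ADP enters as ATP leaves, and phosphate, carboxylates, amino acids, nucleotides, iron and cofactors each have carriers of their own. Retinal pigment epithelium relies on mitochondrial respiration, and its mitochondria are a known target of oxidants.

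Of the 40 tested carriers, 7 rose and 13 fell at 3 h, and 20 did not pass the threshold (limma, adjusted p under 0.05 over all genes tested). The calls were 50% of the tested members, against 51.3% of all 12221 genes tested, so the share of called carriers was that of the array as a whole. By direction, 17.5% rose and 32.5% fell, against 20.6% and 30.8% of all genes. The median change of the carriers was -0.02 on the log2 scale, beside -0.04 for all genes, and their median change without regard to sign was 0.20, the same as for all genes. For 24 carriers the 3 h and 0 h values were fully apart, 60% of those tested, against 60.5% of all genes. On the brightest probe sets, only SLC25A22 was called with a change of at least 1.5-fold (2.5% of tested members, against 9.03% of all genes). Called sizes on these ran from 1.16-fold to 1.59-fold, beside median SDs of 0.07 at 0 h and 0.10 at 3 h on the log2 scale. Dimmer probe sets above the floor rose by more than 1.5-fold for SLC25A25 (0.85 and 1.01), SLC25A23 (0.65) and SLC25A37 (0.61). A probe set of SLC25A21 under the floor fell by 0.74. Averaged over all probe sets of each gene, 11 rose and 12 fell, against 25.1% and 28% of all genes. Without probe sets that the array marks as shared or cross-hybridizing, 31 members could be tested, of which 5 rose and 6 fell, against 21.6% and 27.7% of all genes.

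**Figure D1:**
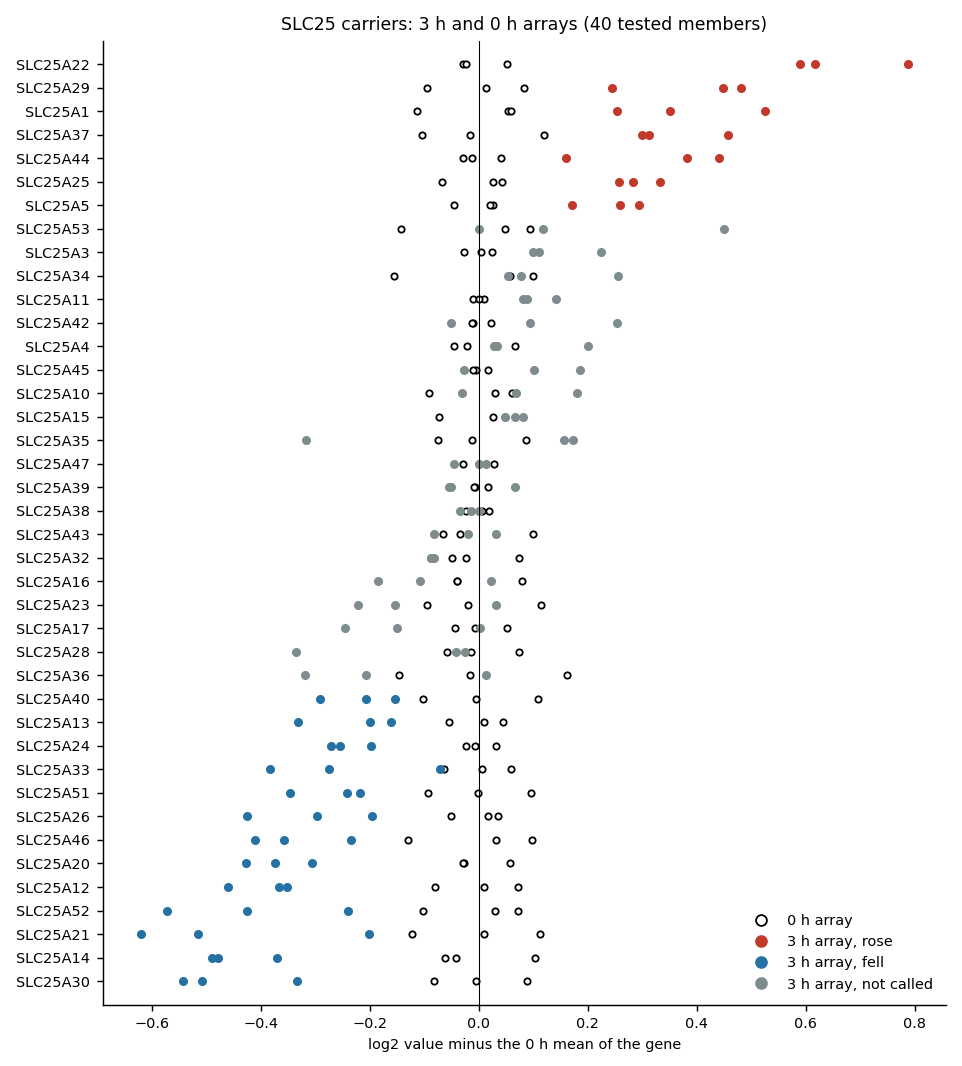
Each row is a tested SLC25 gene, ordered by change, and each point is an array, placed by its log2 value minus the 0 h mean of the gene (open, 0 h; filled, 3 h; red, rose; blue, fell; grey, not called). SLC25A22 lies at the top with a change of 0.67, and the 13 genes that fell end at -0.46 for SLC25A30.

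The promoters of 5 carriers are shown: all 3 with the cyclic AMP element, which differed in their calls, and 2 of the 8 with an ETS core. These 2 were picked from the 4 with that core that fell, and the other 4 were not called. Each promoter is the 250 bases before the start site in RefSeq's table (GRCh38.p14), read 5′ to 3′ along the gene's strand. Capitals mark TGACGTCA, the cyclic AMP response element bound by CREB and ATF factors, CACGTG, the E-box, and CCGGAAG, the core of ETS sites, on either strand; none of the marked matches overlap.
SLC25A25, chr9:128098257-128098506, plus strand: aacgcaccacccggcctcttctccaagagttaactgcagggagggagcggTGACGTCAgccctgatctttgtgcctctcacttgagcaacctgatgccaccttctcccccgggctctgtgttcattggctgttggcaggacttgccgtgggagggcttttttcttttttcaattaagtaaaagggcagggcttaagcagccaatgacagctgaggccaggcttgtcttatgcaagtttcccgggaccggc
SLC25A33, chr1:9539215-9539464, plus strand: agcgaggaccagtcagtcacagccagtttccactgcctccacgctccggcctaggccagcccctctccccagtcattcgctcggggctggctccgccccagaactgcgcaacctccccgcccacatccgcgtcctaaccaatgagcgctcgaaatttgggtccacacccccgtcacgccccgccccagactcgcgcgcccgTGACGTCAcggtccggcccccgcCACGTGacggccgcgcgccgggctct
SLC25A36, chr3:140941586-140941835, plus strand: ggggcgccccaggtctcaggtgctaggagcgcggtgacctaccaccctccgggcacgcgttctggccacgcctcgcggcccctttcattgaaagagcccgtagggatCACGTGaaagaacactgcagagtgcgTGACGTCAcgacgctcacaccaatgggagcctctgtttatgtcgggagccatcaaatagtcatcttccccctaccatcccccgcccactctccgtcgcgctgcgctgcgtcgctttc
SLC25A14, chrX:130339669-130339918, plus strand: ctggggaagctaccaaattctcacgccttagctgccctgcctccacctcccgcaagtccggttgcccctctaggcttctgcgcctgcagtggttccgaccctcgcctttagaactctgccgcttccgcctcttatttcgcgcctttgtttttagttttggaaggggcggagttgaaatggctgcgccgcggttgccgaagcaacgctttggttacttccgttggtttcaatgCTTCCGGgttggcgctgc
SLC25A20, chr3:48898883-48899132, minus strand: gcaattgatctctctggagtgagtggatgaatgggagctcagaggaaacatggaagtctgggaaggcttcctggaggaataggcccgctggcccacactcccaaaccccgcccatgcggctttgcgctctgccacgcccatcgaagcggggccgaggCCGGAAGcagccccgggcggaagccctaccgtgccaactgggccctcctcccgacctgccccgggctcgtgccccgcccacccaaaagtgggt
The SLC25A25 start used here lies 30275 bases inside the gene's annotated span, so it is an internal start site. Of the 40 tested carriers, 35 had a promoter in the table. The cyclic AMP element was found in 3 of the 35 (8.57%, against 2.82% of 10021 promoters of tested genes): SLC25A25, which rose, SLC25A33, which fell, and SLC25A36, which was not called. It lies 200, 49 and 117 bases before the start in these. The ETS core was in 8 of 35 (22.9%, against 15.3%), of which 4 fell and 0 rose; of all tested genes with this core 39.3% fell and 19.1% rose. The E-box was in 6 of 35 (17.1%, against 8.83%), of which 4 fell and 0 rose; of all tested genes with an E-box 29.4% fell and 25.9% rose. These counts are small, and they describe letters in a short window.

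Among carriers that supply ATP synthesis, the ADP/ATP carrier SLC25A5 rose and SLC25A4 was not called. SLC25A5 encodes the ADP/ATP carrier of dividing cells. It read 11.82, 11.81 and 11.75 at 0 h and 12.09, 11.96 and 12.05 at 3 h, with every 3 h array above every 0 h array. The change was 0.24 (SE 0.06, n = 3), with an adjusted p of 0.00772 (limma), and its second probe set gave 0.23. The ADP/ATP carriers are close in sequence and the brightest probe set of SLC25A5 is marked as cross-hybridizing, so its level may hold signal of relatives. The second probe set is not so marked, had a mean of 11.90 over all arrays, and rose in the fit over all probe sets (limma adjusted p = 0.034). SLC25A4, the form of heart and muscle, read 8.26, 8.24 and 8.35 and then 8.48, 8.31 and 8.32. The ranges overlap, and the difference of 0.09 has a 95% interval of -0.07 to 0.24. This probe set of SLC25A4 is also marked as cross-hybridizing, so it may hold signal of the brighter SLC25A5. The other probe set of SLC25A4, not so marked and with a mean of 6.69, stood at 0.16. It was not called in the fit over all probe sets (limma adjusted p = 0.203). SLC25A31, the ADP/ATP carrier of germ cells, was under the floor on all arrays (means of 2.26 and 2.07).

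The phosphate carrier SLC25A3, which brings in the phosphate for ATP synthase, depended on the probe set. Its brightest one read 12.61, 12.59 and 12.56 at 0 h and 12.81, 12.68 and 12.69 at 3 h, without overlap, a difference of 0.14 (SE 0.06, n = 3) that missed the threshold (adjusted p = 0.063, limma). Its 6 probe sets, all above the floor, had log2 changes from -0.22 to 0.26. Fitted over all 49293 probe sets, where 31.5% were called, the probe set at 0.26 rose and the one at -0.22 fell (adjusted p = 0.0162 and 0.0305). SLC25A3 was called at 0.14 with trended and robust variance moderation and with a higher floor, and at 0.29 with the gene density trend removed (the trend of each array's values with the number of neighbouring genes), but turned to -0.15 when shared and cross-hybridizing probe sets were left out.

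The carriers of ATP-Mg and phosphate, which set the adenine nucleotide pool of the matrix, moved in different directions. SLC25A25 rose: its brightest probe set read 8.50, 8.48 and 8.38 at 0 h and 8.74, 8.79 and 8.71 at 3 h, with no overlap and a change of 0.29 (SE 0.06, n = 3) (limma adjusted p = 0.00288). The other probe sets of SLC25A25 moved further, by 0.85 and 1.01, and both rose over all probe sets (adjusted p = 0.000228 and 0.00164). The size of the SLC25A25 change thus differs between its probe sets, while the direction is shared by all 3. SLC25A24 fell by 0.24 (SE 0.05, n = 3); its unshared probe set stood at -0.19 and was not called, nor was the gene with the gene density trend removed (-0.10). SLC25A23 was not called from its brightest probe set (-0.11), whereas the other pair of probe sets rose by 0.65 and 0.44 and their mean with it stood at 0.33 (adjusted p = 0.00110, limma). SLC25A41 was under the floor.

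**Figure D2:**
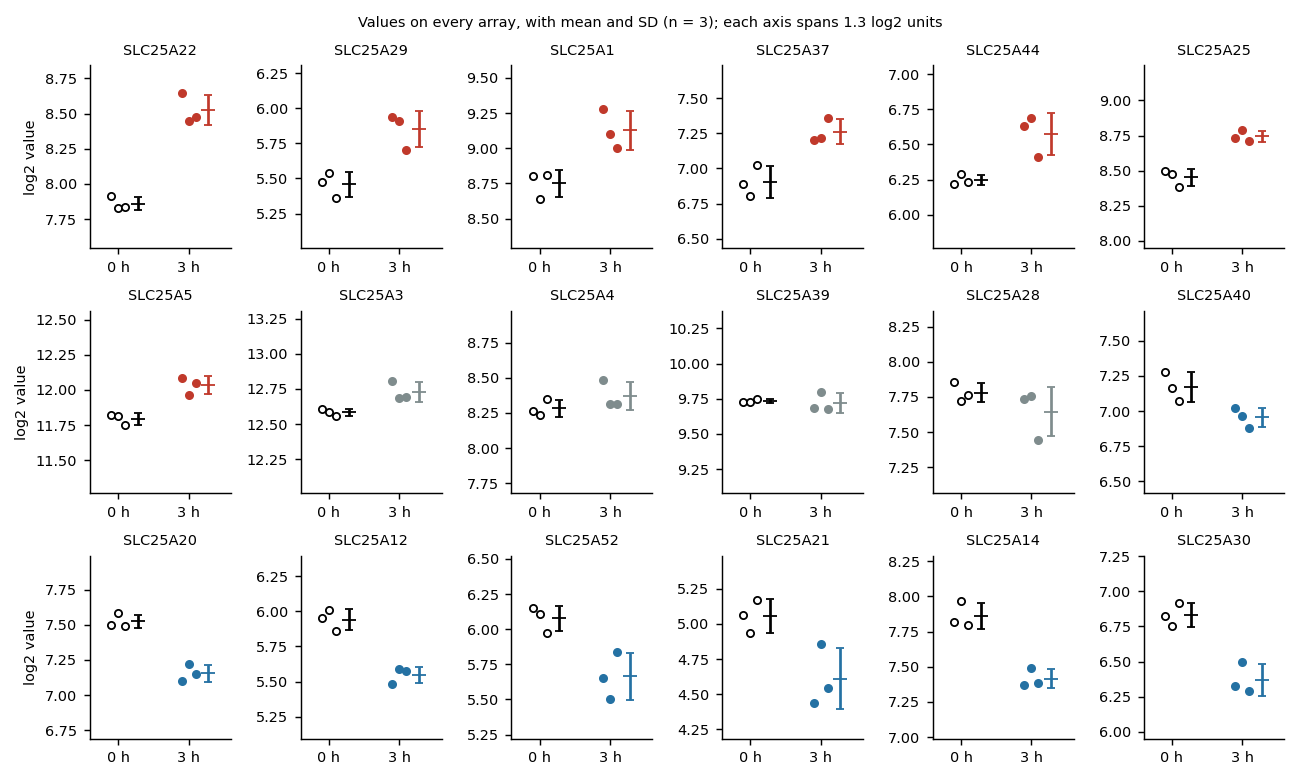
Log2 values on each array for 18 carriers named by rule, ordered by change, with the mean and SD of 3 arrays beside each group (open, 0 h; filled, 3 h; red, rose; blue, fell; grey, not called). The groups are apart for each of the 14 coloured genes, and overlap for SLC25A4, SLC25A28 and SLC25A39.

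Of the carriers of amino acids, 3 of 7 tested rose and 2 fell, against 20.6% and 30.8% of all genes. The glutamate carrier SLC25A22, which imports glutamate with a proton, had the largest rise among the brightest probe sets; as the mean over probe sets SLC25A25 was higher (0.72, against 0.60 for SLC25A22). It read 7.91, 7.83 and 7.84 at 0 h and 8.65, 8.45 and 8.48 at 3 h. Every 3 h array lay above every 0 h array, and the change of 0.67 (SE 0.07, n = 3), 1.59-fold, had an adjusted p of 0.000136 (limma). Its other probe set, under the floor, gave 0.54. SLC25A29, a carrier of basic amino acids, went from 5.47, 5.54 and 5.36 to 5.94, 5.91 and 5.70. It rose by 0.39 (SE 0.08, n = 3) without overlap (limma adjusted p = 0.00357). SLC25A44, which takes branched-chain amino acids into mitochondria, read 6.22, 6.29 and 6.24 and then 6.63, 6.69 and 6.41. It rose by 0.33 (SE 0.08, n = 3), and its other probe set above the floor rose by 0.29. Replicate 3 was the lowest 3 h array for both SLC25A29 and SLC25A44.

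The aspartate-glutamate carriers, which serve the malate-aspartate shuttle of reducing equivalents, both fell. SLC25A12, named aralar, read 5.95, 6.01 and 5.86 at 0 h and 5.48, 5.59 and 5.57 at 3 h, with no overlap, and fell by 0.39 (SE 0.06, n = 3) (limma adjusted p = 0.00101). Averaged with its dim probe sets it stood at -0.12 and was not called. SLC25A13, named citrin, fell by 0.23 (SE 0.06, n = 3), a call that ended without replicate 2 at 0 h (-0.21), for the mean of its probe sets (-0.15) and with the gene density trend removed (-0.09). The glycine carrier SLC25A38, needed for heme synthesis, differed by -0.02 with an interval of -0.13 to 0.10. The ornithine carrier SLC25A15 differed by 0.06 and was called at 0.19 with the gene density trend removed. SLC25A2 and SLC25A18, ornithine and glutamate carriers, were under the floor.

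Carriers of carboxylates and acylcarnitines had 1 of 5 higher and 2 lower, near the 20.6% and 30.8% of all genes. SLC25A1 exports citrate, the source of acetyl groups for fatty acid and sterol synthesis. It read 8.80, 8.64 and 8.81 at 0 h and 9.28, 9.10 and 9.005 at 3 h and rose by 0.38 (SE 0.08, n = 3) (limma adjusted p = 0.00542). Both its other bright probe sets were higher too, by 0.35 and 0.22, the first of them called, but all 3 are marked as cross-hybridizing. SLC25A20 exchanges acylcarnitine for carnitine in fatty acid oxidation. Its values were 7.50, 7.58 and 7.49 at 0 h and 7.10, 7.22 and 7.15 at 3 h, without overlap, and it fell by 0.37 (SE 0.06, n = 3) (limma adjusted p = 0.001). Other probe sets of SLC25A20 above the floor gave -0.42, called in the fit over all probe sets, and -0.14, not called (limma adjusted p = 0.00266 and 0.238). The promoter of SLC25A20 is shown above with its ETS core. SLC25A21, a carrier of oxodicarboxylates in lysine breakdown, went from 5.07, 4.93 and 5.17 to 4.44, 4.85 and 4.54. It fell by 0.45 (SE 0.11, n = 3) with 2 of 3 values at 3 h under the floor, so the size rests on dim signal, and with the gene density trend removed it was not called (-0.30). The dicarboxylate carrier SLC25A10 and the oxoglutarate carrier SLC25A11 were not called, at 0.07 and 0.10. SLC25A10 was called at 0.25 averaged over its probe sets, and SLC25A11 turned to -0.03.

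Carriers of nucleotides and cofactors had 4 of 9 tested members lower and 0 higher (limma; 0 higher also at an unadjusted p under 0.05), against 30.8% and 20.6% of all genes. SLC25A51 and its intronless relative SLC25A52, carriers of NAD, fell by 0.27 and 0.41. SLC25A52 read 6.15, 6.11 and 5.97 at 0 h and 5.65, 5.50 and 5.84 at 3 h, with no overlap (SE 0.09, limma adjusted p = 0.00512). Each of this pair has a single probe set, and both are marked as cross-hybridizing, so the genes may share signal and are not separate evidence. SLC25A26, which imports S-adenosylmethionine for methylation inside mitochondria, fell by 0.31 (SE 0.07, n = 3), and was not called with the gene density trend removed (-0.16). The pyrimidine nucleotide carriers SLC25A33 and SLC25A36, whose promoters with the cyclic AMP element are shown above, had changes of -0.24 and -0.17. The call of SLC25A33 (adjusted p = 0.0376, limma) ended without replicate 1, 2 or 3 at 0 h (-0.24, -0.21, -0.28) and without replicate 1 or 2 at 3 h (-0.17, -0.23). The call also ended with the replicate number as a block (adjusted p = 0.0598), with no floor (-0.24) and with the gene density trend removed (-0.22), and 3 of 3 probe sets of SLC25A36 stood between -0.18 and -0.17. SLC25A17, the peroxisomal carrier of cofactors, was not called (-0.13) but was called without replicate 2 at 3 h (-0.20) and as the mean of its probe sets (-0.27). SLC25A16, SLC25A32 and SLC25A42, carriers linked to coenzyme A, folate or FAD, and coenzyme A, were not called, with changes of -0.09, -0.09 and 0.10. Averaged over their probe sets, SLC25A16 was called at -0.21 and SLC25A42 at 0.25.

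The iron carriers differed. SLC25A37, mitoferrin 1, which brings iron in for heme and iron-sulfur clusters, read 6.89, 6.80 and 7.02 at 0 h and 7.20, 7.22 and 7.36 at 3 h. It rose by 0.36 (SE 0.07, n = 3) without overlap (limma adjusted p = 0.00432), while its other probe sets above the floor gave 0.61, 0.17 and -0.00. Mitoferrin 2, SLC25A28, read 7.85, 7.72 and 7.77 at 0 h and 7.74, 7.76 and 7.44 at 3 h. Its groups overlap, replicate 3 is the low 3 h array, and the difference of -0.13 has an interval of -0.34 to 0.07.

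The glutathione carriers keep the matrix supplied with the thiol that peroxidases use against hydrogen peroxide. SLC25A39 stood at 9.73, 9.72 and 9.75 at 0 h and 9.68, 9.80 and 9.68 at 3 h. These ranges overlap, and the difference of -0.01 has an interval of -0.14 to 0.12. SLC25A40 read 7.28, 7.17 and 7.07 at 0 h and 7.02, 6.97 and 6.88 at 3 h and fell by 0.22 (SE 0.07, n = 3) (limma adjusted p = 0.0296). That call ended without replicate 1 or 2 at 0 h (-0.16, -0.22), without replicate 2 or 3 at 3 h (-0.22, -0.18), with no floor (-0.22), for the mean of its probe sets (-0.18) and with the gene density trend removed (-0.11).

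Both tested members grouped with the uncoupling proteins fell, against 30.8% of all genes, by amounts close to that of SLC25A21. UCP2 itself, described with the gene lists below, rose by 0.56 on its brightest probe set, a call that depended on the probe set. SLC25A30, a carrier first described in kidney, read 6.83, 6.75 and 6.92 at 0 h and 6.32, 6.50 and 6.29 at 3 h. It fell by 0.46 (SE 0.07, n = 3) (limma adjusted p = 0.00111), but its unshared probe set gave -0.16 and was not called. SLC25A14, known as uncoupling protein 5 and shown above with an ETS core close to the start, read 7.82, 7.97 and 7.80 and then 7.37, 7.49 and 7.38. It fell by 0.45 (SE 0.07, n = 3) without overlap (limma adjusted p = 0.00074), and its second probe set fell by 0.26. SLC25A27, uncoupling protein 4, was under the floor.

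Of the 7 remaining tested members, SLC25A46 alone was called, against 51.3% of all genes. It encodes an outer membrane protein of mitochondrial fission and lipid exchange and fell by 0.33 (SE 0.08, n = 3) (limma adjusted p = 0.00645), or -0.18 and not called on its unshared probe set. SLC25A34, SLC25A35, SLC25A43, SLC25A45, SLC25A47 and SLC25A53 had changes from -0.02 to 0.19. SLC25A45 was called at 0.23 averaged over its probe sets. SLC25A48 was under the floor.

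**Figure D3:**
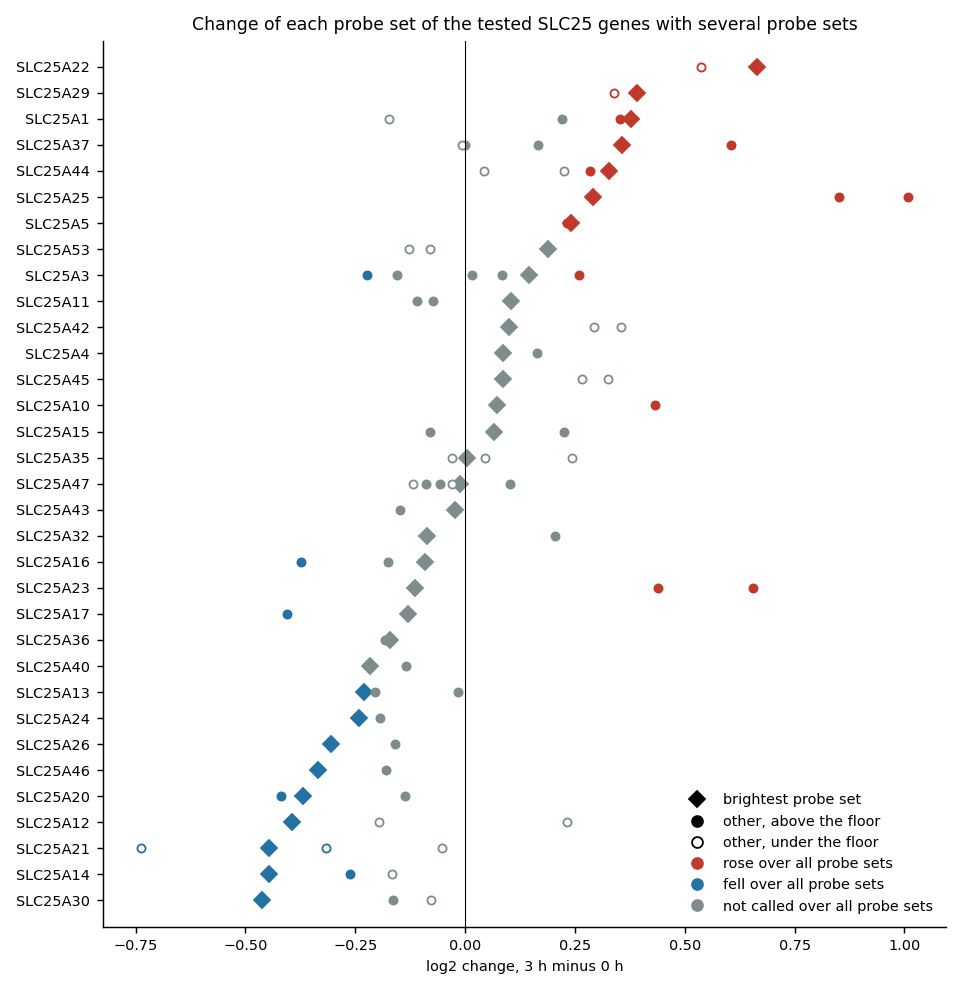
Log2 change (3 h minus 0 h) of each probe set of the tested SLC25 genes that have several, with the brightest as a diamond, others as circles (open where under the floor) and colours for calls over all probe sets. SLC25A25 spans 0.29 to 1.01, SLC25A3 spans -0.22 to 0.26, and SLC25A23 has its brightest probe set at -0.11 and others at 0.44 and 0.65.

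Agreement between probe sets was checked for the 20 called members. For 7 no other probe set was above the floor. For 12 of the other 13, each further probe set above the floor moved the same way, the exception being SLC25A37. In 7 of these 13 at least 1 further probe set was also called in that direction, and in 4 each was. Among all 117 probe sets of the family 31.6% were called, beside 31.5% of all probe sets. The brightest probe set of 10 of the 20 called members is marked as shared or cross-hybridizing.

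Neighbouring genes also went along with direction. In RefSeq's gene table the 7 carriers that rose had a median of 17 protein-coding genes within 500 kb and the 13 that fell a median of 9. The same medians, 17 and 9, were found over all genes that rose and fell, so the carriers followed the array in this. Across the 40 carriers the rank correlation of change with neighbours was 0.49, and 0.28 across 12216 genes; genes are not independent, and genes of one array share its hybridization. With this trend removed from each array, 9 carriers (of 40) rose and 7 fell, beside 23.4% and 26.5% of all genes in that fit. SLC25A20, with 36 neighbours, was the exception among the falls. It fell by 0.44 in that fit, against 0.37 with the trend kept.

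**Figure D4:**
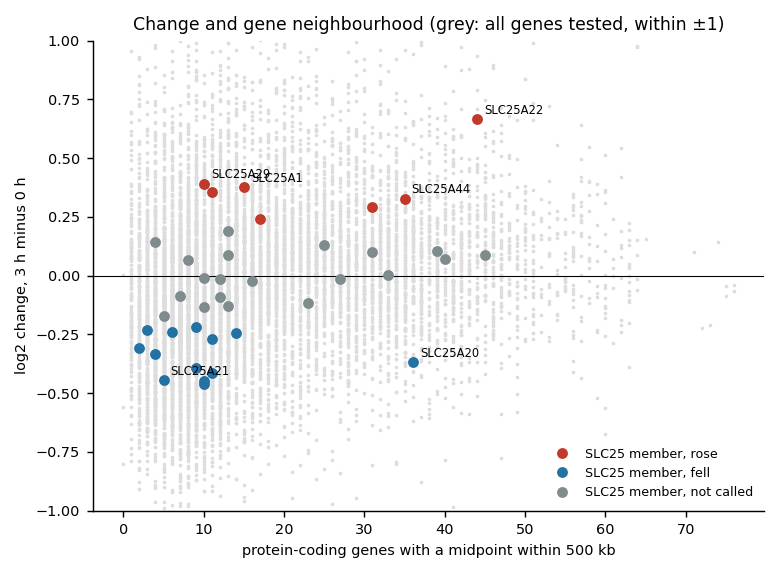
Log2 change (3 h minus 0 h) against protein-coding neighbours within 500 kb, for the 40 tested carriers (red, rose; blue, fell; grey, not called) over all genes tested with changes between -1 and 1 (light grey). Of the carriers that fell, SLC25A20 alone has more than 14 neighbours, and SLC25A22 has 44.

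Genes that work beside the carriers were read from fixed lists, as counts against the same 20.6% and 30.8%. Of 18 genes for the subunits and the inhibitor of ATP synthase, which uses the ADP and phosphate brought in, 11 fell and 0 rose (limma). At an unadjusted p under 0.05 also 0 rose, and the median was -0.19, beside -0.04 for all genes. ATP5ME fell by 0.50 and ATP5MK by 0.33 (limma adjusted p = 0.000312 and 0.00124). Of 18 genes for the import machinery of carriers and for outer membrane pores, 7 fell and 2 rose (median -0.13). The small chaperone genes TIMM8B and TIMM10B fell by 0.46 and 0.44, while the import receptor and channel genes TOMM20 and TOMM40 rose by 0.24 and 0.29. Of 16 inner membrane transporters of other families, 7 fell and 4 rose (median -0.09). LETM1, a cation exchanger, rose by 0.82 and SFXN1, a serine transporter, by 0.41, while the pyruvate carrier gene MPC1 fell by 0.42 and MICU2, a regulator of the calcium uniporter, by 0.39. Of the relatives UCP1, UCP2, UCP3, MTCH1 and MTCH2, the tested UCP2 rose by 0.56 and MTCH2 fell by 0.21. UCP2, an uncoupling protein tied to oxidant control, lost its call when shared and cross-hybridizing probe sets were left out (0.01) and as the mean of its probe sets (0.15). UCP1 and UCP3 were under the floor.

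**Figure D5:**
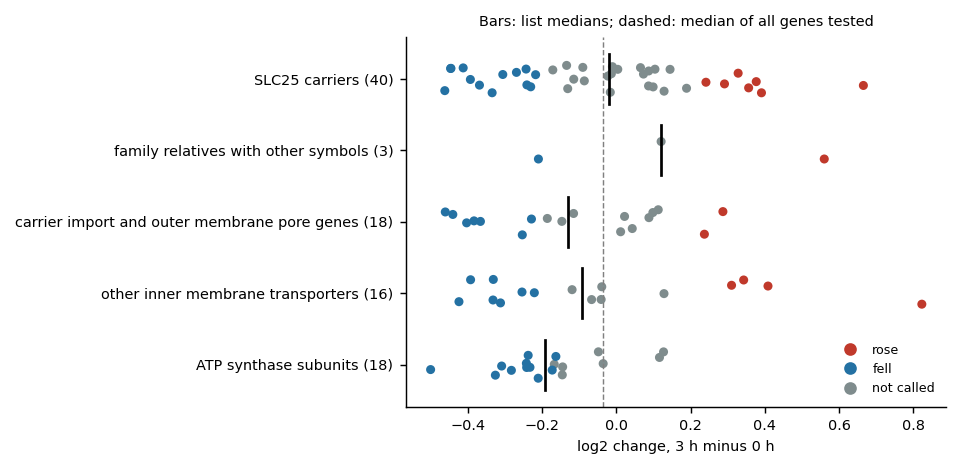
Log2 change (3 h minus 0 h) of each tested gene of the carriers and of 4 fixed lists around them, with the number of tested genes in brackets, a black bar at each median and a dashed line at the median of all genes tested (-0.04). The list named for ATP synthase subunits, which also holds the inhibitor gene, has a median of -0.19 with 0 genes called upward. The carriers spread on both sides of -0.02.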

How the data were processed

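RNA of the 6 samples was labelled with a 3′ IVT kit, per the labels' protocols. The deposited values are on a log2 scale, as read from the values, whose array medians lie between 5.30 and 5.34. MAS5 and RMA are named, without version or role, per the submitters' processing notes; nearly equal distributions hide any change of total RNA. Other software is not given in the sources used here. Of 49372 probe sets, 79 controls were left out; of the rest, 44988 have 1 gene symbol, 1832 several and 2473 none in the platform annotation. Groups came from titles. Groups were contrasted in R 4.3.3 by limma 3.58.1 (lmFit, then eBayes) over 12221 genes, with Benjamini-Hochberg adjustment at 0.05. Changes are 3 h minus 0 h. Tested on simulated data for this comparison over 12221 genes, the step called 99 of 100 genes changed by 1 and 81 of 100 changed by 0.5, with 9 unchanged genes called. The simulation left 12021 genes unchanged, whereas 51.3% of genes were called in the data, and it held no changes smaller than 0.5. Its rates therefore need not hold for the carriers. Figures used matplotlib 3.10.9.

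Values of every array are given for the ADP/ATP, phosphate, iron and glutathione carriers above the floor and the 6 largest called increases and decreases; list genes named are the 2 with the smallest p in each direction. Members, lists, motifs and tests were chosen with earlier results of these data known. Protein sequences were not analysed here. Alternatives covered normalization, centring, floors, probe sets, variance moderation, weights, replicate block, thresholds, gene density (loess, span 0.5) and each array left out.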

Additional observations from a re-analysis of the deposited data

How the results depend on the processing

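Of the 20 called carriers, 11 kept direction and call in each alternative fit that gave a value, changes of threshold not counted. Among these 11, SLC25A1, SLC25A29, SLC25A51 and SLC25A52 gave no value when shared and cross-hybridizing probe sets were left out. SLC25A29, SLC25A51 and SLC25A52 also gave none with the floor at the 60th percentile. When any 1 array was left out, 17 of the 20 kept direction and call. No called carrier changed sign in any alternative run. How many of all called genes kept theirs was not worked out, nor were the shares of all genes called with single arrays left out. These counts are therefore not shown to be particular to the carriers. Leaving out single arrays gave 7 carriers up each time and 10 to 12 down, with a median of -0.067 to -0.016; for the lists around them it gave 6 to 8 up and 22 to 27 down (7 and 26 with all arrays), with a median of -0.18 to -0.15 (-0.16). The median of the carriers moved to -0.057 with median centring and -0.086 when shared and cross-hybridizing probe sets were left out, that of the lists to -0.20, -0.12, -0.19 (mean over probe sets) and -0.11 (gene density trend removed). Carriers called upward numbered 11 with the mean over probe sets; those called downward numbered 6 when shared and cross-hybridizing probe sets were left out, where list genes called downward numbered 17 of 39 tested, and 7 with the gene density trend removed. At a 1.5-fold minimum, 1 carrier and 1 list gene were up and 0 and 0 down, from 13 and 26.

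Reversals were seen for carriers that are not called with all arrays. With the mean over probe sets SLC25A23 turned to 0.33, which was called, SLC25A11 to -0.026, SLC25A32 to 0.059 and SLC25A53 to -0.0062. With the gene density trend removed SLC25A10 turned to -0.0046, SLC25A32 to 0.049, SLC25A35 to -0.068, SLC25A38 to 0.039 and SLC25A47 to 0.082. SLC25A3 turned to -0.15 when shared and cross-hybridizing probe sets were left out. SLC25A35 turned to -0.034 with quantile normalization and -0.033 with median centring. Leaving out single arrays moved SLC25A35 between -0.080 and 0.16, SLC25A39 between -0.053 and 0.0071, SLC25A43 between -0.056 and 0.027 and SLC25A47 between -0.025 and 0.0064. The cause of these was not tested beyond the construction of each alternative.

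With the replicate number as a block, 7 carriers rose and 12 fell, SLC25A33 losing its call. The shares of all genes in that fit were not worked out. Same-numbered arrays did not deviate together (correlations of -0.04, -0.02 and -0.19 across genes), and the labels do not pair them. The 3 arrays a group set the precision, and dim genes under the floor were not tested.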

Other observations

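Promoters and gene lengths of the carriers were also described from RefSeq's tables. Promoters of carriers that rose had a median of 75.8% G or C over the 250 bases before the start (6 genes), those that fell 68.2% (12 genes) and those not called 65.2% (17 genes), beside 67.6%, 63.2% and 64.8% over all genes tested. Carriers that rose spanned a median of 18.7 kb of genome, those that fell 42.8 kb and those not called 15.2 kb, beside 30.4, 36.1 and 22.5 kb over all genes. The antioxidant element TGACNNNGC, read by NRF2, was in 5 of 35 carrier promoters (14.3%, against 12.0% of all): SLC25A1 and SLC25A5, which rose, SLC25A13 and SLC25A24, which fell, and the glutathione carrier SLC25A39, which was not called. The site of nuclear respiratory factor NRF1 was in 3 of 35 (8.57%, against 10.3%): SLC25A3, SLC25A11 and SLC25A52. Both motifs were searched on both strands.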
